A study of Mus musculus with 36 samples.

Results

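The last interval of the differentiation series was examined in the control line: embryoid bodies of AB2.2 mouse embryonic stem cells at day 12 against the same line at day 10. The libraries were chosen by their labelled genotype and time point, which gave 3 libraries at day 12 and 3 at day 10, that is 6 of the 36 libraries of the series. The whole series follows AB2.2 cells and AB2.2 cells without LncCPR, a long noncoding RNA gene, at days 0, 3, 5, 8, 10 and 12. The control line carries no labelled edit or agent at either day. The knockout line, used below only to set its change over the same days beside that of the control, was made with Cas9, GFP and a pair of guide RNAs on either side of the gene, followed by sorting of single cells. How many clones stand behind it is not given in the sources used here, and no entry of the tables carries the name LncCPR, so the deletion was not checked. Leukaemia inhibitory factor was withdrawn from all groups when hanging drops were set up, and RNA was taken from whole embryoid bodies. Of 37561 gene entries, 13038 reached a mean of 1 FPKM (fragments per length of transcript and per number of mapped fragments) over the 6 control libraries and were tested.

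Embryoid bodies are aggregates in which embryonic stem cells, once leukaemia inhibitory factor is gone, form derivatives of all germ layers. Mesoderm gives rise to beating heart muscle first, and later to smooth muscle, fibroblasts and other connective tissue cells. Fibroblasts are the main makers of extracellular matrix: fibrillar collagens such as types I and III give tensile strength, collagen VI forms beaded microfilaments around cells, and small leucine-rich proteoglycans such as decorin and lumican bind and space the fibrils. RNA of whole embryoid bodies averages over all of these cells, so fewer cells of a type and less RNA per cell cannot be told apart.

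The scale of the libraries and 1 unusual control library bear on every value below. The median log2 change over all tested genes was 0.134 as deposited and 0.003 after each library was divided by the median ratio of its genes to their average (median-ratio rescaling), so changes are given on both scales. Day 10 replicate 3 stood apart from the other 5 control libraries. An entry named n424047 was listed at 40180 FPKM there, 12.89% of its sum, against 373.7 to 1742 FPKM in the others, and the library's scale factor was 0.8299 against 0.9893 to 1.105. Sums per library ran from 298800 to 333900 FPKM, and 12598 to 13183 entries lay above 1 FPKM. Across genes, log2 values correlated at r from 0.9705 to 0.9734 within day 12, from 0.9778 to 0.9829 within day 10 and from 0.965 to 0.9737 between the days, genes not being independent replicates. Each day is a table of its own, so day and table cannot be told apart.

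As deposited, 104 genes were higher at day 12 (0.798% of those tested) and 10 were lower (0.0767%) at an adjusted p under 0.05 (limma, Benjamini-Hochberg). After rescaling 27 were higher (0.207%) and 10 lower (0.0767%). On both scales 27 genes were higher and 5 were lower. With 1 library left out after rescaling, 5 to 24 genes were called higher and 0 to 8 lower. The genes higher as deposited included 3 chains of collagen VI, the proteoglycans decorin, lumican and biglycan, and the mineralization inhibitor Mgp, while the cartilage collagen gene Col2a1 and the muscle regulator Myocd were lower. In all 114 genes called as deposited the libraries of the days did not overlap, and of all genes tested 20.66% had no overlap, 2275 of them higher and 419 lower. The leading genes were also named only if without overlap. Lack of overlap in a called gene below is thus a description and adds nothing to its call. Without day 10 replicate 3, the count was 18 higher and 2 lower, of which 17 and 1 were among the calls with all libraries. Of the 30 called control genes named by rule, 16 lost their call without that library, namely Col14a1, Col2a1, Col3a1, Crabp1, Dab1, Dhrs3, Dkk2, Hapln1, Ifitm3, Krt7, Lum, Myocd, Oasl2, Sfrp1, Sfrp2 and Stra8. Without day 12 replicate 1, 8 of the 30 lost it, and the other 4 libraries cost 1 to 6 calls each. Of 10 further called genes named below, Bgn, Igfbp3, Igfbp7, Ogn, Sema3d, Thbs2 and Timp1 lost their call without day 10 replicate 3, while Cdh11, Ddr2 and Vcam1 kept it. A change of more than 2-fold on the log2(FPKM + 1) scale was reached by 54 of the higher and 4 of the lower genes as deposited, and by 19 of the 27 higher genes after rescaling. Small RNAs and predicted entries made up 8 of the higher and 3 of the lower genes.

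**Figure D1:**
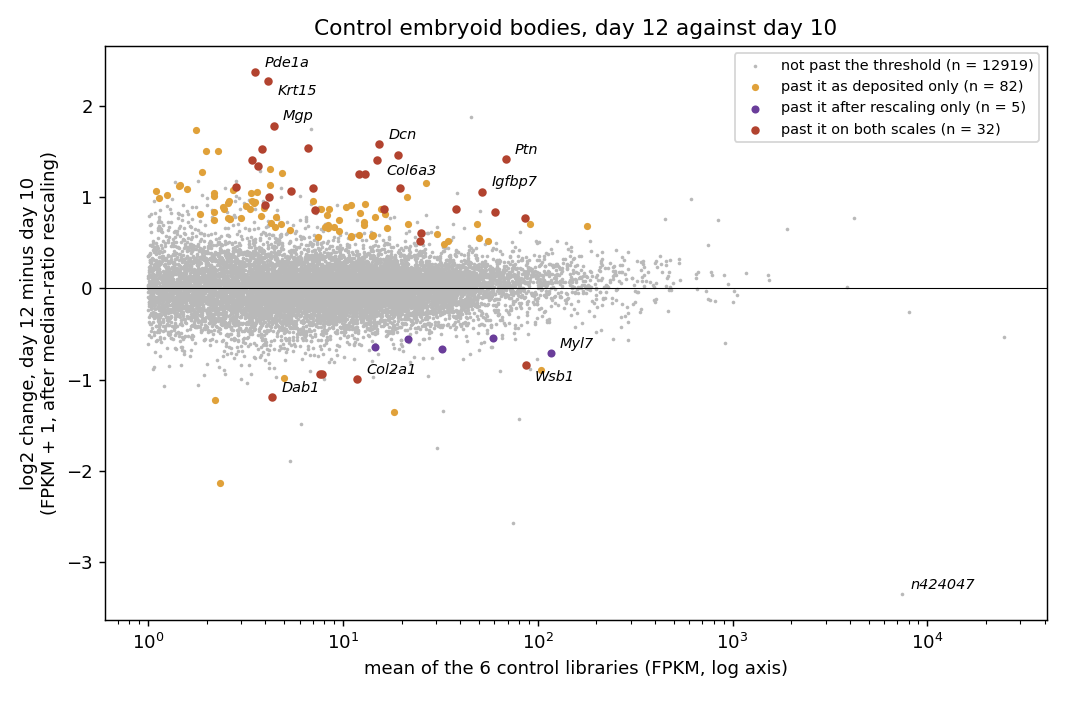
Log2 change of FPKM + 1 from the fit after median-ratio rescaling, day 12 minus day 10 (vertical axis), against the mean FPKM of the 6 control libraries (horizontal log axis), with 1 point per tested gene. The 32 genes past the threshold on both scales are mostly above 0, and n424047, at the lower right, is the entry that took 12.89% of day 10 replicate 3.

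Pde1a, a calcium- and calmodulin-dependent phosphodiesterase of cyclic nucleotides, showed the largest change among genes called on both scales. It stood at 7.57, 5.96 and 6.56 FPKM at day 12, against 0.442, 0.642 and 0.164 FPKM at day 10. No library of the days overlapped. The log2 change was 2.45 (SE 0.20) as deposited and 2.37 after rescaling (limma adjusted p 2.27e-05 and 0.00143). Pde1a reached the filter of a mean of 1 FPKM through day 12 alone, and without a filter its limma adjusted p was 0.139. Pde1a was also near 0 at each earlier day, with means of 0.0391, 0.0166, 0.0851 and 0.0364 FPKM at days 0, 3, 5 and 8, so its RNA first passed 1 FPKM at day 12.

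Krt15, a type I keratin of basal epithelial cells, had 10.2, 5.20 and 7.54 FPKM at day 12, against 0.119, 0.753 and 1.09 FPKM at day 10. Its day 12 libraries spread widely but all lay above day 10, with a log2 change of 2.39 (SE 0.26, adjusted p 0.000177) and 2.28 after rescaling (adjusted p 0.0218). Krt15 also passed the filter through day 12 alone (limma adjusted p 0.214 without a filter). Among 24 tested genes of epithelial junctions and keratins, Krt15 and Krt7 were the 2 called as deposited, where 0.798% of all genes were higher. Krt7, a type II keratin of simple epithelia, averaged 19.4 ± 2.6 FPKM at day 12 and 9.72 ± 0.22 FPKM at day 10 (SD, n = 3 each), a log2 change of 0.92 (adjusted p 0.00816) that missed the threshold after rescaling (adjusted p 0.0601). The list lay 12 above and 12 below 0 after rescaling, with a median of 0.01.

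Pleiotrophin (Ptn), a secreted heparin-binding growth factor, had the highest day 12 level of the 10 leading higher genes. Its values were 101.8, 107.4 and 98.9 FPKM at day 12, against 38.3, 38.8 and 26.4 FPKM at day 10. The day 12 libraries lay close together and far above day 10. Its log2 change was 1.57 as deposited (adjusted p 0.000163) and 1.42 after rescaling (SE 0.10, adjusted p 0.00143). Figf, the gene of vascular endothelial growth factor D, averaged 5.54 ± 0.41 FPKM at day 12 and 1.29 ± 0.13 FPKM at day 10 (log2 change 1.52, adjusted p 0.00034). The serine protease inhibitor gene Serpina3n averaged 6.31 ± 0.70 FPKM at day 12 and 1.36 ± 0.38 FPKM at day 10 (log2 change 1.64, adjusted p 0.000279). It belongs to a mouse family of similar genes between which reads may be split, so its level is uncertain.

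The matrix proteoglycans and fibroblast genes held the most called members of any of the 45 lists compared. This list, like the others, was chosen with earlier results of these data known, so its counts are descriptions and not tests. Of 34 genes listed, all were found and 30 were tested. Higher as deposited were 8 of the 30 and none were lower, against 0.798% of all genes higher, and 5 of the 8 were also higher after rescaling. After rescaling 23 of the 30 lay above 0, where 50.54% of all tested genes did, and the median change was 0.32 against 0.003 over all genes. Summed over the list, the control libraries held 2385 to 2645 FPKM at day 12 and 1734 to 2366 FPKM at day 10.

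Decorin (Dcn), which binds collagen fibrils, had 27.1, 21.9 and 23.1 FPKM at day 12, against 4.82, 8.08 and 7.18 FPKM at day 10. Matrix Gla protein (Mgp), an inhibitor of calcification in vessel walls and cartilage, had 7.37, 6.51 and 8.73 FPKM at day 12, against 1.49, 1.76 and 0.757 FPKM at day 10. Lysyl oxidase (Lox), which cross-links collagen and elastin, had 10.8, 11.5 and 9.54 FPKM at day 12, against 2.11, 3.77 and 2.25 FPKM at day 10. In each of the 3 the lowest day 12 library was above every day 10 library. Their log2 changes were 1.72 for Dcn, 1.89 for Mgp and 1.67 for Lox as deposited, and 1.58, 1.79 and 1.54 after rescaling, with adjusted p of 0.0117, 0.0086 and 0.00948 on that scale. Lumican (Lum), a keratan sulfate proteoglycan, had 50.6, 31.3 and 33.4 FPKM at day 12, against 11.5, 20.7 and 12.9 FPKM at day 10. Its groups did not overlap either, and it was called as deposited (log2 change 1.31, adjusted p 0.00696) but not after rescaling (1.16, adjusted p 0.0601).

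The other called members were Bgn, Thbs2, Ogn and Timp1. Biglycan (Bgn), another small proteoglycan, had 47.9, 45.5 and 60.9 FPKM at day 12, against 22.5, 28.6 and 23.4 FPKM at day 10, and held on both scales (log2 change 1.02 as deposited and 0.87 after rescaling). Thrombospondin 2 (Thbs2) also held on both scales, at 1.22 and 1.11. Osteoglycin (Ogn) and the metalloproteinase inhibitor Timp1 were called as deposited only, at log2 changes of 1.11 and 1.00. Ogn passed the filter through day 12 alone. Abundant matrix genes of the list moved less. Sparc, a collagen-binding glycoprotein, had 525.7, 508.9 and 513.6 FPKM at day 12, against 380.6, 476.3 and 323.3 FPKM at day 10. Periostin (Postn) had 253.4, 199.2 and 223.7 FPKM at day 12, against 125.0, 190.5 and 116.5 FPKM at day 10. Neither passed the threshold on either scale, although their libraries did not overlap. Fibronectin (Fn1) lay at the other end of the list, with 213.1, 217.5 and 195.4 FPKM at day 12 and 270.7, 296.1 and 263.9 FPKM at day 10, and a change of -0.41 as deposited and -0.56 after rescaling that also missed the threshold (adjusted p 0.238 and 0.0587).

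Among 25 tested genes of the collagen list, 5 were higher and 1 lower as deposited, against 0.798% and 0.0767% of all genes, and 4 and 1 after rescaling. Col25a1, which the list does not hold, was also higher as deposited (log2 change 0.98, adjusted p 0.0189). The 3 chains that build the collagen VI monomer were all among them. Col6a1 had 29.3, 26 and 29.0 FPKM at day 12, against 11.1, 13.8 and 9.20 FPKM at day 10. Col6a2 had 18.3, 20.9 and 14.8 FPKM at day 12, against 5.74, 7.04 and 5.79 FPKM at day 10. Col6a3 had 23.5, 24.3 and 20.6 FPKM at day 12, against 7.32, 7.71 and 6.39 FPKM at day 10. In all 3 the libraries of the days were well apart. The log2 changes as deposited were 1.25 (SE 0.16, adjusted p 0.000937) for Col6a1, 1.39 (SE 0.17, adjusted p 0.000374) for Col6a2 and 1.55 (SE 0.15, adjusted p 0.000152) for Col6a3. After rescaling they were 1.11, 1.25 and 1.40, and all 3 stayed past the threshold. In the control series, mean Col6a1 was 0.131, 0.132, 1.12, 2.89, 11.4 and 28.1 FPKM at days 0, 3, 5, 8, 10 and 12, so day 12 was the highest of the 6 days.

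Col6a1 and Col6a2 are neighbours on chromosome 10 and Col6a3 lies on chromosome 1. Their start sites are shown because the 3 genes moved together. Each sequence holds 250 bases before and 50 after the annotated start (RefSeq, build GRCm38.p6), and is read along the gene's own strand, the minus strand for all 3. They lie at chr10:76725995-76726294 for Col6a1, chr10:76623355-76623654 for the first listed of 2 Col6a2 entries, and chr1:90843922-90844221 for Col6a3. Capitals mark matches on either strand to the GC box GGGCGG, the TATA box TATAAA or the CArG box, the binding motif of serum response factor.
Col6a1: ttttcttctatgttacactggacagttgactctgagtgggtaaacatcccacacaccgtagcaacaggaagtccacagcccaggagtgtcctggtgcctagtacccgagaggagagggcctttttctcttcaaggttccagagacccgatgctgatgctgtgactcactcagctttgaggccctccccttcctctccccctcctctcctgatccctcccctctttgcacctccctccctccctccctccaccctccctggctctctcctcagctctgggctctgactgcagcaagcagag
Col6a2: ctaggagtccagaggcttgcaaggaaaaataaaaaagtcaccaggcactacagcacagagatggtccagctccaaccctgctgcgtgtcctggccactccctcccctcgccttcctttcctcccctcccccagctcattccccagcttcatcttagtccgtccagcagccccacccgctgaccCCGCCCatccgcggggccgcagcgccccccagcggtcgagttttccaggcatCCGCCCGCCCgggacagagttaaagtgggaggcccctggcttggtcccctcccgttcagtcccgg
Col6a3: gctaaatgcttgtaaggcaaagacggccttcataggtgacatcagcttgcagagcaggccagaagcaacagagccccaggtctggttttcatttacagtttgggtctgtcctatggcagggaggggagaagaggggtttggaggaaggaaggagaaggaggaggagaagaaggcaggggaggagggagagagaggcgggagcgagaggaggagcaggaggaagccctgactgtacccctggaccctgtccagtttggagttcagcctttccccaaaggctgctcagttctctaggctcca
Only the Col6a2 sequence had matches among these 3, to the GC box in 3 places on the other strand, 2 of which overlap. The second Col6a2 entry, not shown, had 1 GC box on the other strand. The promoter table held 8585 of 12972 tested gene symbols with 11100 promoters. A TATA box was found in 14 of the 83 promoters (16.9%) of genes higher at day 12 and in 7.04% of promoters of all tested genes. The GC box was found in 45.8% of the promoters of higher genes and in 63.5% of all, and the CArG box in 1.2% and 1.39%. These shares are descriptions of letters in a window, and they were not tested.

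Of the other collagens, Col3a1, the main fibrillar collagen of soft tissue, had 243.5, 209.2 and 237.9 FPKM at day 12, against 114.1, 156.0 and 118.0 FPKM at day 10. Its groups were apart, and it was higher as deposited (log2 change 0.84, adjusted p 0.0219) but not after rescaling (0.68, adjusted p 0.0549). Col14a1, a fibril-associated collagen, averaged 5.67 ± 0.39 FPKM at day 12 and 2.26 ± 0.31 FPKM at day 10 and held on both scales (log2 change 1.04 and 0.92). After rescaling its call was lost whichever library was left out (adjusted p 0.0688 to 0.148). Col1a1, which pairs with Col1a2 in collagen I, had 64.2, 81.4 and 78.2 FPKM at day 12, against 45.7, 56.5 and 40.3 FPKM at day 10. The groups did not overlap, but its change of 0.65 missed the threshold (adjusted p 0.0785), as did that of Col1a2 at 0.73 (adjusted p 0.0517). The basement membrane collagens Col4a1 and Col4a2 lay at -0.10 and -0.09 after rescaling, with adjusted p of 0.658 and 0.776.

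**Figure D2:**
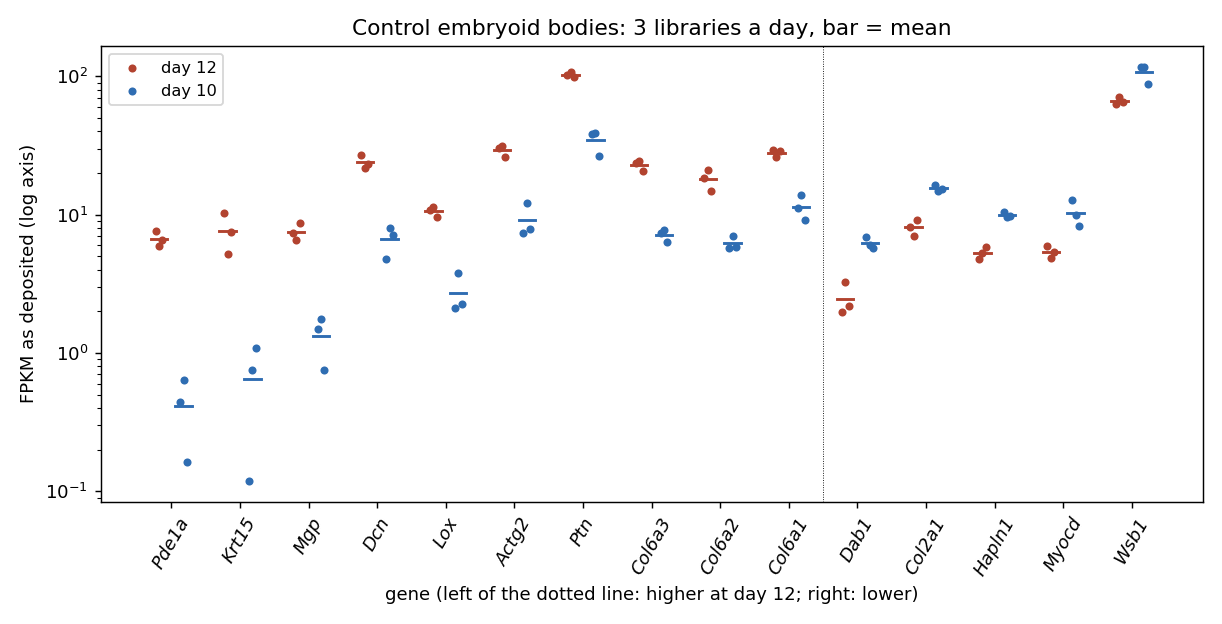
FPKM as deposited (vertical log axis) of 15 named genes in each control library, with points for the 3 libraries of a day, day 12 left of day 10, and bars for their means. In each gene shown the days do not overlap, which the rule for naming the leading genes required. Pde1a, Krt15 and Mgp have day 10 means of 0.416, 0.653 and 1.33 FPKM.

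Receptors and adhesion genes outside the lists were also among those higher on both scales, and are named here after their values were seen. Vcam1, an adhesion molecule that binds integrins, had 18.9, 21.2 and 17.6 FPKM at day 12, against 6.32, 7.69 and 6.11 FPKM at day 10, a log2 change of 1.39 as deposited and 1.25 after rescaling (adjusted p 0.000235 and 0.00671). Ddr2, a receptor kinase for fibrillar collagen, had 8.67, 8.11 and 6.93 FPKM at day 12, against 3.13, 3.01 and 2.51 FPKM at day 10. Cdh11, a cadherin of mesenchymal cells, had 84.8, 73.3 and 82.3 FPKM at day 12, against 38.0, 46.4 and 36.0 FPKM at day 10. All 3 had every day 12 library above every day 10 library. Igfbp7, a secreted binding protein of insulin-like growth factors, had 86.5, 66.1 and 66.2 FPKM at day 12, against 27.4, 37.3 and 28.1 FPKM at day 10. Its log2 change was 1.21 as deposited and 1.06 after rescaling. Col6a1, Col6a3, Pde1a, Ptn and Vcam1 were the 5 genes that stayed past the threshold with any of the 6 libraries left out, on both scales.

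Smooth muscle genes were mixed. Of 13 tested, 2 were higher and none lower as deposited, against 0.798% and 0.0767% of all genes. After rescaling 9 lay above 0 with a median of 0.13. Actg2, the gamma actin of visceral smooth muscle, had 30.1, 31.5 and 26.2 FPKM at day 12, against 7.31, 12.1 and 7.88 FPKM at day 10, and was higher on both scales (log2 change 1.61 and 1.47). Phospholamban (Pln), which restrains the calcium pump of the sarcoplasmic reticulum in heart and smooth muscle, had 23.2, 22.4 and 18.2 FPKM at day 12, against 9.02, 9.79 and 11.1 FPKM at day 10. Pln was higher as deposited (1.02, adjusted p 0.00425) and missed the threshold after rescaling (0.88, adjusted p 0.0601). Acta2, the smooth muscle alpha actin that early heart muscle also makes, had 482.6, 403.5 and 456.2 FPKM at day 12 and 495.6, 566.6 and 383.6 FPKM at day 10, which overlap (log2 change -0.09, adjusted p 0.836).

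No sarcomere gene of heart muscle was called higher. Of 27 tested sarcomere genes none passed the threshold as deposited. After rescaling 21 lay below 0 and 6 above, with a median of -0.33, and 1, Myl7, was lower, against 0.0767% of all genes. Among the 6 above 0 was Ttn, which was listed at 0 in 5 of the 6 libraries and at 41.1 FPKM in the other, so its value cannot be read. Myl7, the atrial regulatory myosin light chain, had 90.1, 86.7 and 107.5 FPKM at day 12, against 138.9, 147.4 and 132.0 FPKM at day 10. Its libraries did not overlap, and the change was -0.56 as deposited (adjusted p 0.103) and -0.71 after rescaling (adjusted p 0.0477). The Myl7 start site (chr11:5898733-5899032, minus strand, same source) is shown because it holds a match to the CArG box, in capitals. The box is symmetric as a pattern, so the site is matched on either strand.
Myl7: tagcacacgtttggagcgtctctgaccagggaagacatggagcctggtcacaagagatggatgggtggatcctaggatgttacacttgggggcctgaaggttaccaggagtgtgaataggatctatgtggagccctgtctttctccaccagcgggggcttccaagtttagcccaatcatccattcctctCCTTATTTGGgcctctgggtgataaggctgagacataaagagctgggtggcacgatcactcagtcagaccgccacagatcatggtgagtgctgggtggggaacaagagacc
That match is a description, with no measure of binding in these data.

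The myosin heavy chains of heart muscle were not called. Myh6, the alpha chain, had 142.8, 172.9 and 149.3 FPKM at day 12 and 164.4, 187.7 and 191.3 FPKM at day 10, with overlap. Myh7, the beta chain, had 76.4, 64.0 and 95.6 FPKM at day 12, against 122.6, 118.0 and 118.2 FPKM at day 10, with no overlap. Neither passed the threshold on either scale, with log2 changes of -0.23 for Myh6 and -0.62 for Myh7 as deposited (adjusted p 0.49 and 0.0948). Cardiac troponin T (Tnnt2) averaged 106.0 ± 15.7 FPKM at day 12 and 122.3 ± 5.1 FPKM at day 10 (log2 change -0.21, adjusted p 0.516). Myl2, the ventricular light chain, and Tnni3, the adult form of cardiac troponin I, lay on the other side of 0 at 0.66 and 0.56, again short of the threshold (adjusted p 0.0784 and 0.147). The atrial hormone gene Nppa was low on both days, with means of 1.18 ± 0.96 FPKM at day 12 and 1.13 ± 0.41 FPKM at day 10.

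Of 24 cardiac transcription factors and cofactors, 1 was lower as deposited and the same 1 after rescaling, against 0.0767% of all genes each time. After rescaling 22 of the 24 lay below 0 with a median of -0.27. The called gene was Myocd, the cofactor of serum response factor that drives heart and smooth muscle genes. It had 5.96, 4.88 and 5.39 FPKM at day 12, against 12.7, 9.91 and 8.31 FPKM at day 10, without overlap. Its log2 change was -0.80 as deposited (adjusted p 0.0437) and -0.94 after rescaling (adjusted p 0.0429), and the call as deposited was lost when any of the 6 libraries but day 12 replicate 3 was left out. After rescaling it was lost whichever library was left out (adjusted p 0.0829 to 0.146). Nkx2-5, the homeodomain factor of early heart, averaged 3.11 ± 0.59 FPKM at day 12 and 3.54 ± 0.24 FPKM at day 10 and was not called (log2 change -0.15, adjusted p 0.725). Hand1 and Smyd1, further regulators of heart muscle, were at -0.77 after rescaling, short of the threshold (adjusted p 0.0687 and 0.0562). Of 18 genes of calcium handling and ion channels, 14 lay below 0 and 4 above after rescaling with a median of -0.22. Pln was the member called, higher and as deposited only, where 0.798% of all genes were higher.

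Of 9 tested genes of cartilage and bone, 2 were lower on both scales, against 0.0767% of all genes on each scale. The list lay 4 above and 5 below 0 after rescaling with a median of -0.02. Col2a1, the fibrillar collagen of cartilage, had 8.19, 7.02 and 9.20 FPKM at day 12, against 16.3, 14.9 and 15.3 FPKM at day 10. Hapln1, the link protein that holds aggrecan on hyaluronan and is also made in the developing heart, had 4.79, 5.24 and 5.79 FPKM at day 12, against 10.4, 9.69 and 9.76 FPKM at day 10. Day 12 lay wholly below day 10 in both. The log2 changes were -0.86 for Col2a1 (adjusted p 0.0136) and -0.81 for Hapln1 (adjusted p 0.0221) as deposited. After rescaling, Col2a1 kept its call in 1 of 6 fits with a library left out (adjusted p 0.0301 to 0.146). Hapln1 kept it in none of them (adjusted p 0.0591 to 0.184). Sox9, the regulator of cartilage genes, was at -0.50 and missed the threshold (adjusted p 0.188). Alpl, the tissue-nonspecific alkaline phosphatase, Sox5, Spp1 and Sox6 were the 4 members above 0 after rescaling, at 0.44, 0.35, 0.27 and 0.05, none of them called.

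The other genes lower on both scales were Dab1 and Wsb1. Dab1, an adaptor of reelin receptors in neurons, had 1.97, 3.26 and 2.19 FPKM at day 12, against 6.94, 5.99 and 5.77 FPKM at day 10 (log2 change -1.07, adjusted p 0.0115). It was already present in undifferentiated cells, at a mean of 9.95 FPKM at day 0. Wsb1, a substrate receptor of a ubiquitin ligase, had 62.7, 71.3 and 64.9 FPKM at day 12, against 117.5, 117.5 and 88.5 FPKM at day 10 (log2 change -0.68, adjusted p 0.0496). Both had no overlap between days. With single libraries left out after rescaling, Dab1 kept its call in 1 of 6 fits and Wsb1 in 3 of 6. Besides Myl7, the genes called lower after rescaling only were Prtg, Flnc, Chd7 and Mtap1b, with changes from -0.66 to -0.55 on that scale. All 5 are named after their values were seen.

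**Figure D3:**
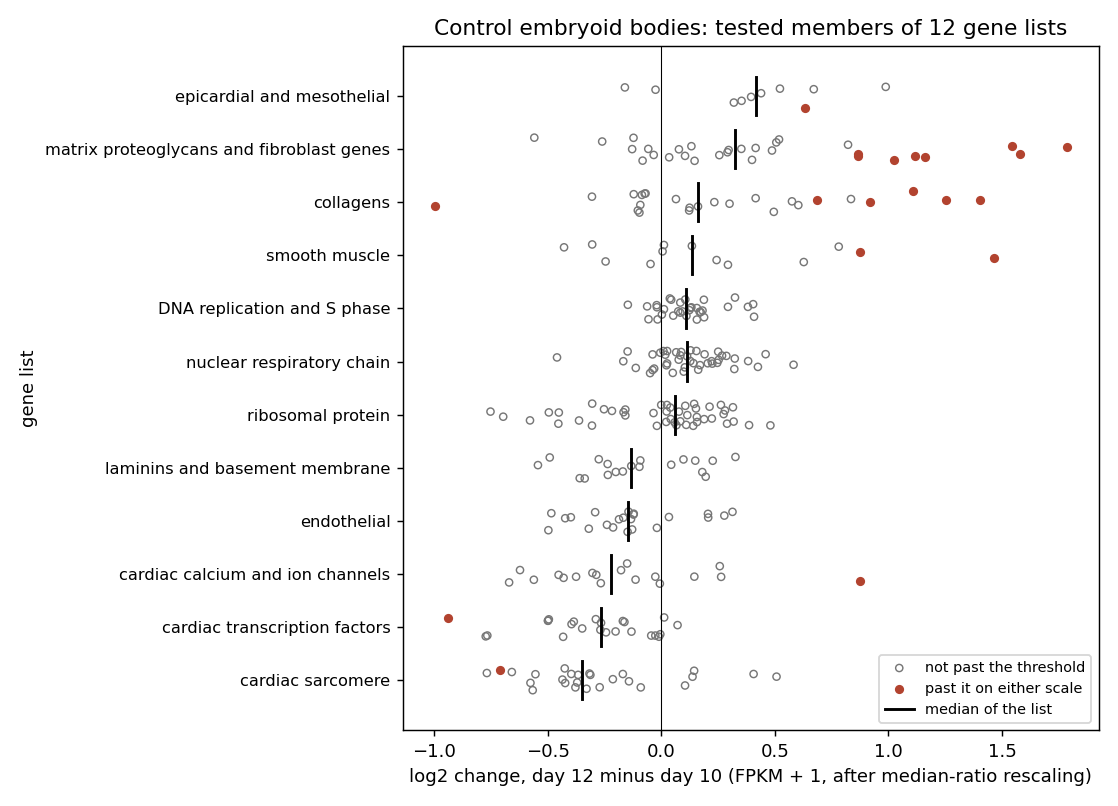
Log2 change of FPKM + 1 after median-ratio rescaling (horizontal axis) of tested members of 12 gene lists, with filled points for genes past the threshold on either scale and bars for the list medians, Ttn left out. The 8 filled points of the matrix list lie between 0.87 and 1.79, and 21 of 27 sarcomere genes lie below 0.

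The epicardial and mesothelial list, genes of the outer layer of the heart and of body cavity linings, had the highest median after rescaling of the 45 lists, 0.42 over 10 genes, with 8 above 0. Of all tested genes, 50.54% lay above 0 on that scale and 0.798% were higher as deposited. The called member of the list was Sema3d, a secreted guidance molecule, with 15.3, 9.96 and 11.8 FPKM at day 12, against 6.40, 6.35 and 7.45 FPKM at day 10 (log2 change 0.77, adjusted p 0.0495 as deposited, 0.146 after rescaling). Aldh1a2, which makes retinoic acid, had 2.75, 5.35 and 1.44 FPKM at day 12, against 0.838, 0.823 and 0.831 FPKM at day 10. Its groups did not overlap, but the wide spread at day 12 kept it short of the threshold (1.08, adjusted p 0.0891). Tcf21, a factor of epicardial and fibroblast precursors, stood at 4.297, 5.97 and 7.04 FPKM at day 12, against 2.60, 3.09 and 4.20 FPKM at day 10 (adjusted p 0.167). Wt1 overlapped between the days.

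Among retinoic acid genes, 3 of 13 were higher as deposited and none after rescaling, against 0.798% and 0.207% of all genes. The median after rescaling was 0.37. Crabp1, which binds retinoic acid in the cytoplasm, averaged 17.9 ± 3.1 FPKM at day 12 and 8.15 ± 2.57 FPKM at day 10 (log2 change 1.07, adjusted p 0.0173). Dhrs3, which turns retinal back into retinol, averaged 5.98 ± 0.74 FPKM at day 12 and 3.01 ± 0.50 FPKM at day 10 (0.80, adjusted p 0.0476). Stra8, a retinoic acid target of germ cells, was low, at 1.89 ± 0.19 FPKM at day 12 and 0.316 ± 0.18 FPKM at day 10 (1.14, adjusted p 0.0188), and passed the filter through day 12 alone. All 3 were without overlap between the days.

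The 3 of 22 Wnt pathway genes that were higher as deposited all encode secreted inhibitors of Wnt signalling. Of all genes tested 0.798% were higher as deposited. Sfrp2, a decoy that binds Wnt proteins, had 13.6, 16.1 and 12.97 FPKM at day 12, against 8.10, 6.85 and 4.72 FPKM at day 10. Sfrp1, of the same family, had 38.1, 39.9 and 36.8 FPKM at day 12, against 21.1, 24.3 and 22.2 FPKM at day 10. Dkk2, which binds the Lrp co-receptors, had 13.7, 9.94 and 10.2 FPKM at day 12, against 5.18, 5.75 and 5.02 FPKM at day 10. None of the 3 overlapped between days, and none passed after rescaling (adjusted p 0.0575, 0.0601 and 0.0541). The target gene Axin2 had overlapping libraries and was not called (0.35, adjusted p 0.411). The list as a whole lay 11 above and 11 below 0 after rescaling.

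Of 24 interferon and antigen presentation genes, 2 were higher as deposited and none after rescaling, against 0.798% and 0.207% of all genes. After rescaling 19 lay above 0 with a median of 0.17. Ifitm3, a membrane protein that blocks virus entry and also marks early germ cells, had 17.4, 12.8 and 15.5 FPKM at day 12, against 5.71, 8.67 and 6.17 FPKM at day 10 (log2 change 1.06, adjusted p 0.00856). Oasl2, of the oligoadenylate synthase family, had 5.65, 3.998 and 4.14 FPKM at day 12, against 1.93, 1.96 and 1.37 FPKM at day 10 (1.02, adjusted p 0.0194). The groups of both genes were apart.

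No gene of the endothelial, macrophage, or visceral endoderm lists was called. Of 22 endothelial genes, 17 lay below 0 after rescaling with a median of -0.15. Pecam1, the endothelial adhesion molecule that stem cells also make, averaged 17.2 ± 2.8 FPKM at day 12 and 12.7 ± 3.4 FPKM at day 10 (adjusted p 0.311). The embryonic globin gene Hbb-y averaged 1.91 ± 0.28 FPKM at day 12 and 4.09 ± 1.85 FPKM at day 10, with no overlap (log2 change -0.74, adjusted p 0.188). Of 24 macrophage and lysosomal genes found, 5 were tested and none called, and Trem2 was at 0 in 5 of 6 libraries. The lysosomal protease gene Lgmn made up most of their sum, with 85.7, 84.6 and 84.4 FPKM at day 12 and 69.7, 113.9 and 69.0 FPKM at day 10. Lyz2, a lysozyme of myeloid cells, did not reach the filter and had 1.52, 1.53 and 1.09 FPKM at day 12, against 0.0656, 0.424 and 0.0651 FPKM at day 10, all low but apart. Summed over the macrophage list, libraries held 97.8 to 109.8 FPKM at day 12 and 78.4 to 131.1 FPKM at day 10.

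Secreted proteins of visceral endoderm and liver were abundant and varied between libraries. Alpha-fetoprotein (Afp) had 549.9, 262.3 and 399.8 FPKM at day 12 and 220.9, 330.1 and 308.9 FPKM at day 10. Transthyretin (Ttr) had 154.8, 136.2 and 118.7 FPKM at day 12 and 105.1, 213.3 and 113.8 FPKM at day 10. Both overlapped, and none of the 23 tested genes of the list was called, 11 of them above 0 after rescaling. The imprinted long noncoding RNA H19 had 224.4, 512.6 and 245.6 FPKM at day 12 and 224.7, 212.4 and 209.7 FPKM at day 10, so day 12 replicate 2 alone stood high (adjusted p 0.35). Epcam, the epithelial adhesion molecule, averaged 94.7 ± 7.7 FPKM at day 12 and 77.2 ± 11.8 FPKM at day 10, with overlap (log2 change 0.30, adjusted p 0.376).

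No pluripotency gene was called lower or higher between the days. Of 22 such genes 15 lay above 0 after rescaling with a median of 0.15. Pou5f1, the core pluripotency factor, had 21.5, 38.7 and 13.5 FPKM at day 12 and 20.8, 12.4 and 14.2 FPKM at day 10, against a mean of 505.4 FPKM at day 0 of the same line. Day 12 replicate 2 was the highest library, as it was for H19, and the days overlapped (log2 change 0.52, adjusted p 0.388). Sox2, shared by stem cells and neural precursors, averaged 23.5 ± 1.5 FPKM at day 12 and 20.3 ± 4.3 FPKM at day 10 (adjusted p 0.535), and the neuronal tubulin Tubb3 was at 3.07 ± 0.74 and 2.82 ± 0.83 FPKM (adjusted p 0.857). The mesoderm factor T averaged 2.02 ± 0.67 FPKM at day 12 and 1.86 ± 0.68 FPKM at day 10 (adjusted p 0.899).

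The proliferation marker Mki67 averaged 89.9 ± 3.4 FPKM at day 12 and 89.5 ± 13.9 FPKM at day 10 (log2 change 0.02, adjusted p 0.968, and -0.14 after rescaling). None of 32 genes of DNA replication was called, and 26 of them lay above 0 after rescaling with a median of 0.11. Of 43 nuclear genes of the respiratory chain 34 lay above 0 with a median of 0.11, and of 27 unfolded protein and stress genes 21 did with a median of 0.16, again with no call in either list. A mixed list of noncoding RNAs, with Malat1, Neat1, Gas5, Mir17hg and 7SK among its members, lay the other way, with 8 of 9 below 0 and a median of -0.48. Medians also followed transcript length: after rescaling they ran from 0.088 in the shortest of 10 length classes (62 to 1073 bases, longest annotated transcript) to -0.111 in the longest (6794 to 123179 bases), and from 0.003 to -0.012 in the knockout line. With that trend removed 24 genes were higher and 6 lower, of which 22 and 4 were among those called on both scales. The part of length, or of RNA quality, in the small shifts of the lists was not tested.

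**Figure D4:**
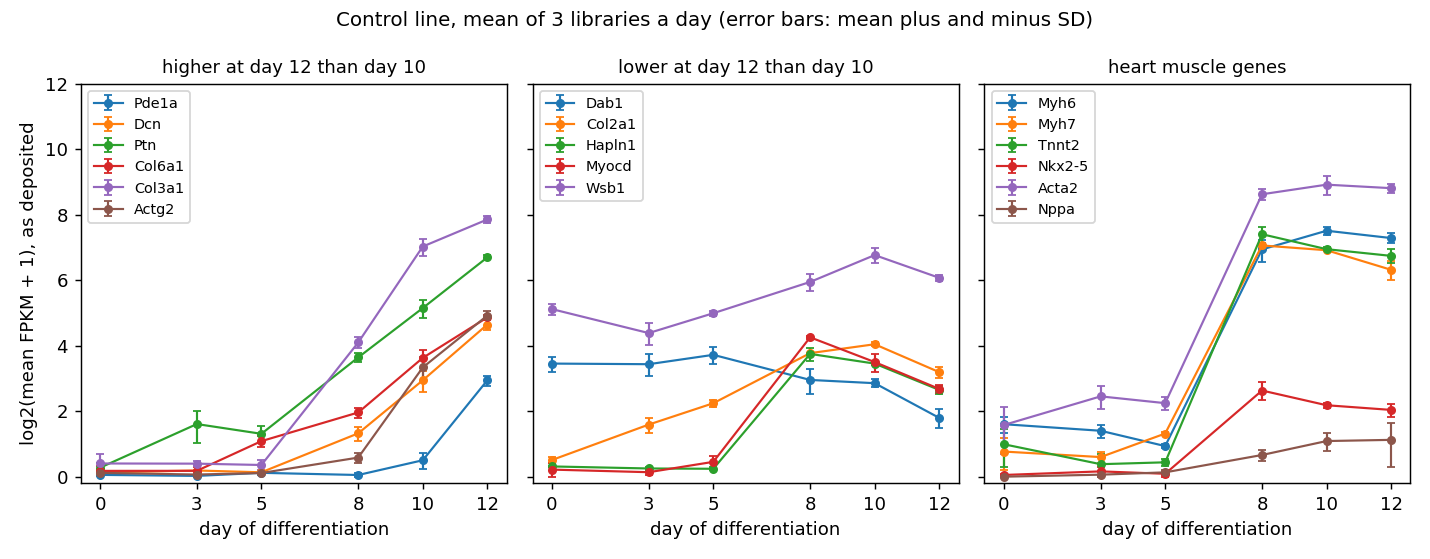
Log2 of mean FPKM + 1 in the control line (vertical axis) by day of differentiation (horizontal axis), with error bars from the mean minus SD to the mean plus SD of 3 libraries. The 6 genes of the left panel are highest at day 12, where Col3a1 averaged 230.2 FPKM, while Tnnt2, Nkx2-5 and Myocd are highest at day 8 and Myh6 at day 10.

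Set in the whole control course, Dcn, Col3a1, Actg2, Ptn and the collagen VI chains were highest at day 12. Mean Dcn was 1.503, 6.69 and 24.04 FPKM at days 8, 10 and 12, and mean Col3a1 was 16.1, 129.4 and 230.2 FPKM. Mean Actg2 was 0.498, 9.10 and 29.3 FPKM on the same days. All 3 were at most 0.323 FPKM at days 0, 3 and 5. Stra8, Crabp1 and Ifitm3 were highest at day 0 instead, at means of 31.5, 25.06 and 51.0 FPKM. Of the lower genes, Myocd and Hapln1 were highest at day 8, Col2a1 and Wsb1 at day 10 and Dab1 at day 5. Mean Myocd was 18.1, 10.3 and 5.41 FPKM at days 8, 10 and 12, and mean Hapln1 was 12.4, 9.95 and 5.27 FPKM. Mean Tnnt2 was 168.2, 122.3 and 106.0 FPKM over those days, whereas mean Myh6 was 121.6, 181.2 and 155.0 FPKM. The tables of different days were not tested against each other here beyond days 12 and 10.

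In the knockout line, 301 of 12944 tested genes (2.33%) differed between the same days, 185 higher and 116 lower. Knockout day 12 replicate 3 stood apart, with 27.19% of its sum in its top 10 entries. The other knockout libraries of these days had 12.44% to 16.37% there. Without that library 207 genes were called, and with any other single knockout library left out 63 to 193 were. Of the 104 genes higher in the control, 85 could be tested in the knockout and 78 lay above 0 there after rescaling, where 49.78% of all tested genes did. Of these 85, 22 were called higher in the knockout, which is 22 of its 185 higher genes. Their median change after rescaling was 0.46 in the knockout and 0.87 in the control, and the control value is shaped by the choice of genes. All 23 testable genes of the 27 called on both scales lay above 0 in the knockout, and 12 were called. Dcn had 3.58, 5.08 and 1.91 FPKM at day 12 of the knockout, against 0.888, 0.851 and 0.704 FPKM at day 10 (log2 change 1.25 as deposited, adjusted p 0.0393). Col6a1 had 13.1, 12.3 and 10.9 FPKM at day 12 of the knockout, against 6.79, 5.54 and 6.47 FPKM at day 10 (0.85, adjusted p 0.0116). Ptn had 41.4, 36.0 and 25.9 FPKM, against 16.8, 13.2 and 12.6 FPKM (1.203, adjusted p 0.0116). All 3 thus rose in both lines without overlap between days, and their interaction, described next, was not called (adjusted p 0.576, 0.409 and 0.572). Of the 10 genes lower in the control, 7 lay below 0 in the knockout and none was called there.

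Whether a change between days differed between the lines was tested as an interaction, the knockout change minus the control change, in a fit of all 12 libraries. It was called for 37 of 13032 genes as deposited (0.284%), 7 of them with the higher change in the knockout and 30 with the lower. After rescaling it was called for 133 (1.02%), 93 and 40, and 33 genes were called on both scales. The median interaction over all genes was -0.11 as deposited. Among the 104 genes higher in the control, 100 could be tested and 3 were called as deposited. They were Pde1a, Oasl2 and Igfbp3, a carrier of insulin-like growth factors that is named after its values were seen (interaction -1.37, adjusted p 0.00624). Among the 10 genes lower in the control, none was called as deposited, and Col2a1 and Hapln1 were called after rescaling (interaction 0.88 and 1.04, adjusted p 0.0341 and 0.0325). Ifitm3 (-1.11, adjusted p 0.0434) and Acta2 (0.75, adjusted p 0.0238) were likewise called after rescaling only. The 104 and the 10 genes were picked by the control change that the interaction subtracts, so its sign was partly set by that choice.

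Pde1a was the leading control gene in this test. It was named for its control rise, which the interaction subtracts, so a negative value was largely set by that choice. Its mean was 6.695 FPKM at control day 12 and at most 0.416 FPKM in the other groups. It passed the filter over 12 libraries through control day 12 alone. It stood at 0.582, 0.151 and 0.0613 FPKM at day 12 of the knockout, against 0.0012, 0.109 and 0.0456 FPKM at day 10, so that it stayed below 1 FPKM in every knockout library. The interaction was -2.21 as deposited (SE 0.28, adjusted p 0.00624) and -2.18 after rescaling. Rbp4, the plasma carrier of retinol, went the opposite way. It had 47.6, 63.3 and 49.6 FPKM at day 12 of the knockout, against 15.9, 19.5 and 17.4 FPKM at day 10, while the control had 39.6, 44.3 and 43.9 FPKM at day 12 and 39.8, 75.8 and 52.5 FPKM at day 10. The rise was thus seen in the knockout only, with an interaction of 1.88 (adjusted p 0.00624).

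Over the pluripotency list, 18 of 22 tested genes had an interaction below 0 after rescaling, with a median of -0.91, and Nanog, Tdgf1 and Dnmt3b were called as deposited. Over the primitive streak and early mesoderm list it was 8 of 9, with a median of -1.03, and T, Eomes and Fgf8 were called. Over all genes tested, 49.62% lay below 0 and the median was 0.003. Trh, the precursor of thyrotropin-releasing hormone, had 23.7, 17.7 and 21.6 FPKM at day 12 of the knockout, against 79.7, 85.1 and 80.2 FPKM at day 10. In the control it had 18.9, 20.9 and 12.3 FPKM at day 12 and 17.8, 9.75 and 15.8 FPKM at day 10. Eomes, a T-box factor of the primitive streak, had 1.91, 0.967 and 1.34 FPKM at day 12 of the knockout, against 5.92, 8.45 and 7.96 FPKM at day 10, and averaged 3.20 ± 0.54 FPKM at day 12 and 3.17 ± 0.45 FPKM at day 10 of the control. In both genes every knockout library stood above every control library at day 10, whereas at day 12 the lines overlapped in Trh and the knockout lay below the control in Eomes. The interactions were -2.17 for Trh and -1.83 for Eomes (adjusted p 0.00624 for each). Fgf5, Fgf8, Tdgf1, Pim2, Nanog and T had the same direction, with interactions from -2.38 for Tdgf1 to -1.68 for Fgf8. As deposited, Nanog changed by 0.893 in the control (limma adjusted p 0.103) and by -0.868 in the knockout, so both lines entered its interaction. Control changes of the others ran from -0.027 for Pim2 to 0.687 for Tdgf1, none of them called. The calls of Pim2, Nanog and T were lost after rescaling (adjusted p 0.0567, 0.0749 and 0.0567). These 3 and Tdgf1 were also the calls lost when single libraries were left out, which kept 6 to 10 of the 10 genes chosen for this test.

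**Figure D5:**
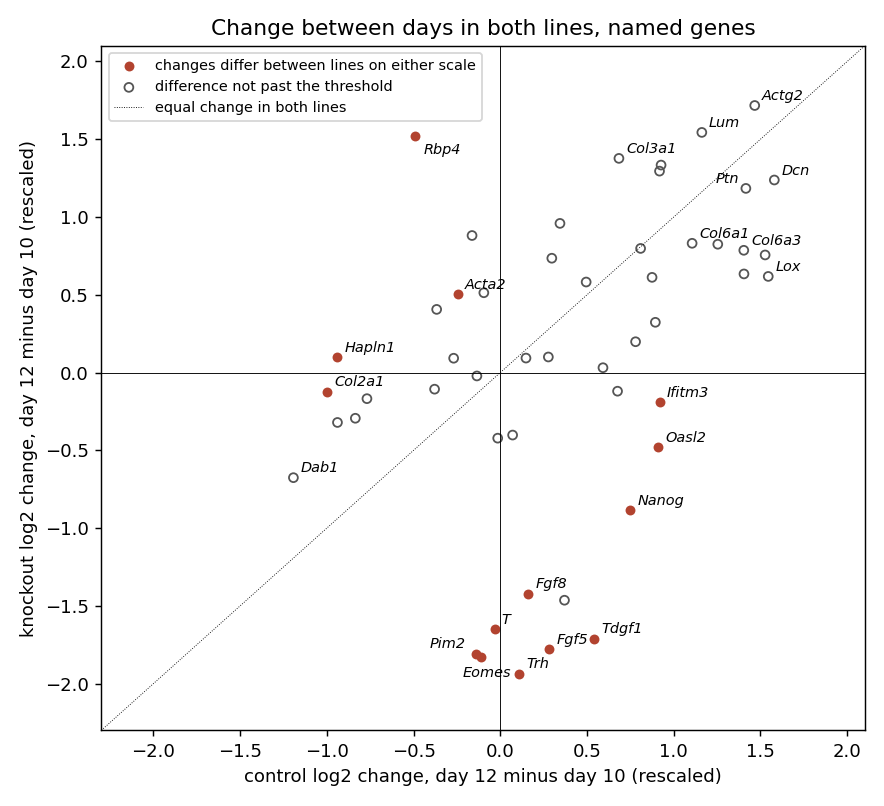
Change between days in the knockout line (vertical axis) against that in the control line (horizontal axis), log2 of FPKM + 1 after median-ratio rescaling, for the 51 named genes tested in both lines. Matrix genes lie at the upper right in both lines, while Trh, Eomes, Fgf5 and Tdgf1 lie between -0.11 and 0.54 in the control and between -1.94 and -1.71 in the knockout.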

How the data were processed

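RNA of whole embryoid bodies was sequenced from total RNA after removal of ribosomal RNA (ScriptSeq Complete Gold), per the labels' protocols. The deposited values are FPKM per gene, made by the authors with TopHat, Cufflinks and mm9, per the submitters' processing notes, with versions not given in the sources used here. Read depth is unknown, so no counting intervals are given. The file headers set control and knockout libraries of 1 number side by side, and whether they were scaled in pairs is not stated. No alignment or quantification was repeated.

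Values were tested as log2(FPKM + 1) with limma 3.58.1 in R 4.3.3 (lmFit, eBayes with trend, two-sided), for genes that averaged at least 1 FPKM in the libraries compared, with Benjamini-Hochberg adjustment over all of them and a threshold of 0.05. Fold changes are on the log2(FPKM + 1) scale, which understates low genes. Groups hold 3 libraries each, and an exact permutation test of 1 gene could not go below a p of 0.1. The labels do not say that libraries came from separate cultures, so p-values measure the spread between these libraries, which may be technical. Whether replicate numbers pair the libraries is not stated. Between control libraries of the same number, deviations from the group means correlated at 0.051, -0.03 and 0.094 between the days. Even so, 4 of 6 libraries correlated best with their own number, so pairing is unsettled. The main fits did not use it.

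Genes were named by rule: up to 10 per direction with the largest change among those called on both scales, without overlap and averaging at least 5 FPKM on the higher day; up to 4 called members of each list with 2 or more; a set panel; and the 10 largest called interactions among genes averaging at least 5 FPKM in 1 of the 4 groups, small RNAs and predicted entries left out of both rankings. Others are said to be chosen after their values were seen, or are members given to describe a list. The members and lists were chosen with earlier results of these data known. Of 1082 list genes 1061 matched an entry, and 7 of them matched several. Alternatives were median-ratio and upper-quartile rescaling, another pseudocount (0.1), other filters, a fit without trend, a replicate block, the spread of 12 libraries, removal of a trend with transcript length (chosen after seeing the data) and leaving out each library. On simulated data of 13038 genes the control test recovered 72% of genes changed by 1 on the log2 scale and 96% of those changed by 2. Of the genes it called, 5.08% were false. Over 13032 genes the interaction test recovered 55% and 95%, and 1.32% of the genes it called were false. The simulated libraries had no differences of scale, unlike the real ones. Tables and figures were made with Python 3.11.15, pandas 2.3.3, numpy 2.4.6 and matplotlib 3.10.9.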

Additional observations from a re-analysis of the deposited data

Results flagged for a closer look

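The change between day 12 and day 10 differed between the knockout and control lines for 11 genes named by rule and for 3 others named in the report (Igfbp3, Dnmt3b and Spp1), by the interaction in limma over 12 libraries (knockout change minus control change, log2 of FPKM + 1, Benjamini-Hochberg). The interaction was -2.379 for Tdgf1 (adjusted p 0.0294), -2.173 for Trh (adjusted p 0.00624) and -2.167 for Fgf5 (adjusted p 0.0105). It was -1.827 for Eomes (adjusted p 0.00624), -1.768 for Pim2 (adjusted p 0.0497) and -1.761 for Nanog (adjusted p 0.0497). It was -1.714 for T (adjusted p 0.0368) and -1.683 for Fgf8 (adjusted p 0.0105). Knockout libraries at day 12 lay below those at day 10 in all 8 of these genes. Nanog also changed by 0.893 in the control, against -0.868 in the knockout, as deposited.

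Among genes higher at day 12 in the control were Pde1a, with an interaction of -2.206 (adjusted p 0.00624), and Oasl2, with -1.483 (adjusted p 0.0391). Both were picked for their control rise, which the interaction subtracts, and Pde1a passed the filter through control day 12 alone. Oasl2 had 1.90, 1.998 and 1.01 FPKM at day 12 of the knockout and 2.03, 3.005 and 2.79 FPKM at day 10, while it was higher at day 12 in the control. Rbp4 had the higher change in the knockout, with an interaction of 1.884 (adjusted p 0.00624). Of the others, the DNA methyltransferase gene Dnmt3b had -1.668 and Igfbp3 had -1.373 (adjusted p 0.00624 for each), and the secreted phosphoprotein gene Spp1 had -1.135 (adjusted p 0.0391).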

How the results depend on the processing

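The control comparison called 114 genes as deposited, 37 after median-ratio rescaling, 36 after upper-quartile rescaling, 30 with the length trend also removed, and 0 without a filter on low values (limma, 2477 at an unadjusted p under 0.05). Leaving out each library gave 20 to 244 calls. After rescaling, the 37 calls became 290 with the spread taken from 12 libraries and 5 to 28 with a library left out. Replicate numbers share no stated source, and the replicate block gave 220 calls for the control as deposited, 24 for the interaction as deposited and 72 after rescaling, with 4 of 6 libraries correlating best with their own number. The interaction called 37 genes as deposited, 133 after median-ratio rescaling, 128 after upper-quartile rescaling, 84 with the length trend removed and 6 without a filter. Leaving out each library gave 11 to 61 calls for it, and 21 to 197 after rescaling. The knockout comparison called 301 genes, 0 without a filter (limma, 3140 at an unadjusted p under 0.05) and 63 to 207 with a library left out, and after rescaling 84 to 293. The cause of these shifts was not tested.

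Of the 30 called control genes named by rule, 18 kept their call after median-ratio rescaling and none without a filter. Signs turned only in uncalled control changes close to 0. With median-ratio rescaling, with the length trend removed and with upper-quartile rescaling, Tubb3 was at -0.015, -0.061 and -0.021, T at -0.033, -0.074 and -0.038, Mki67 at -0.135, -0.009 and -0.143, and Eomes at -0.111, -0.112 and -0.117. With a library left out, Nppa ran from -0.367 to 0.158, Acta2 from -0.248 to 0.033, Ttr from -0.198 to 0.31, Tubb3 from -0.073 to 0.249, T from -0.073 to 0.258, Mki67 from -0.097 to 0.127, Eomes from -0.083 to 0.118 and Pim2 from -0.237 to 0.296. Unknown depth limits what can be said of genes under 1 FPKM, such as Lyz2.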
